A study of Mus musculus with 6 samples.

Results

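Genes encoding transcription factors of the mammary bud and the ectodermal placode were followed in embryonic mouse mammary buds exposed to recombinant Ectodysplasin. The 10 genes are Tbx2, Tbx3, Gata3, Trp63, Msx1, Msx2, Foxi3, Hoxc8, Tfap2a and Tfap2c, chosen by name as regulators known from mammary bud and placode development. Each was found in the deposited table by its Ensembl gene identifier, written with the suffix _at. All 10 had a row among the 25949 probe sets of the table, and no row had a missing value. Every embryo was Eda-/-, on the B6CBA background, and was taken at E13.5 (embryonic day). These buds lack the ligand Eda in both groups, so the comparison is between its absence and its acute addition, and it holds no wild-type buds. The control group was incubated for 4 hours without recombinant protein and the treated group for 4 hours with Fc-Eda-A1 (Fc-Eda), a soluble form of the ligand. Each group had 3 arrays of total RNA. By the labels a pool held about 20 buds from 5 to 6 embryos, while the study's methods give somewhat lower numbers of both, and the buds of each embryo were divided between both conditions, so that arrays with the same replicate number form a pair. Most of the surrounding mesenchyme had been removed by hand, and the epithelial buds may therefore still carry some mesenchymal cells.

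Mammary placodes are local thickenings of the ectoderm that sink into the underlying mesenchyme as buds. Their formation depends on Fgf and Wnt signals and on a set of transcription factors, some acting in the epithelium, some in the mesenchyme and some in both. Eda is a Tnf family ligand that binds the receptor Edar on ectodermal placode cells and activates NF-κB. In bulk RNA of pooled buds, a lower level in each cell and fewer cells of the kind that expresses the gene cannot be told apart. The tables used here give no gene names for the identifiers of the remaining probe sets, so the labelled tissue was not checked against cell type markers beyond the 10 genes.

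Foxi3, a forkhead factor of ectodermal placodes that is mutated in hairless dog breeds, showed the largest difference of the 10 genes. The stretch of DNA upstream of it is printed because it is the member whose level differed most. RefSeq starts its Foxi3 model (build GRCm38.p6) close to the coding sequence, with the first ATG 3 bases after the start, so only the 100 bases farthest from that start are shown, at chr6:70956356-70956455 on the plus strand.
Foxi3 upstream: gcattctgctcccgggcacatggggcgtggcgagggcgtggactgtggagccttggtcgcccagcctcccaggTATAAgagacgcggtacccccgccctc
The capitals mark the letters TATAA, which begin at position -177 from the annotated start. These letters stand, on either strand, in 24.9% of the 32851 promoter windows of the RefSeq table, each running from 250 bases before a start to 50 after it. They were found in 2 of the 6 windows of the members, those of Foxi3 and Msx2. The consensus motif of NF-κB was searched on both strands of the same windows. It was found in 8.46% of all windows and in 0 of the members' windows, which cover Gata3, Msx1, Msx2, Foxi3 and, with 2 windows, Tfap2a. No window was held for Tbx2, Tbx3, Trp63, Hoxc8 and Tfap2c. The absence of a match says only that these letters do not occur in these windows.

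The values are log2 signals, 1 per array and probe set, as deposited by the authors. As a guide to the scale, the mean over the control arrays had a median of 4.87 over all probe sets, a 25th percentile of 3.57 and a 75th percentile of 6.35. Probe sets differ in how well they hybridize, so levels are described for each gene and not ranked between genes. The array of control replicate 1 stood apart from the other 5, with a median of 4.99 against 4.80 to 4.83 and an interquartile range of 2.59 against 2.81 to 2.96. Centring each array on its median therefore adds 0.18 to every difference of pair 1 and 0.057 to every mean difference. The 2 arrays of pair 1 did not differ by a constant, which centring takes no account of. Their 25th percentiles were 3.74 in the control and 3.46 in the treated array, and their 75th percentiles 6.34 and 6.40. Cyclic loess, which also follows the level, moved the members' pair 1 differences by -0.12 to 0.0078 and those of pairs 2 and 3 by at most 0.016. Results are given for the deposited values. For each gene, values follow that come from leaving out a pair or from rescaling the arrays by centring or cyclic loess, where these moved the mean difference by over 1.5 times or changed its sign or a call.

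In the control buds, the level of Foxi3 (ENSMUSG00000055874_at) was 7.11, 7.63 and 6.76 in replicates 1, 2 and 3. After Fc-Eda it was 9.07, 8.54 and 8.57. Every treated array was above every control array, and the lowest treated value exceeded the highest control value by 0.91. The differences within pairs were 1.96, 0.91 and 1.81, with a mean of 1.56 and a limma standard error of 0.22 (n = 3 pairs). On the linear scale this is a 2.95-fold higher level, with a 95% interval of 2.01 to 4.32. The smallest difference came from pair 2, whose control buds had the highest Foxi3 level of the controls. The 3 treated values spanned 0.53 and the 3 control values 0.87.

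**Figure D1:**
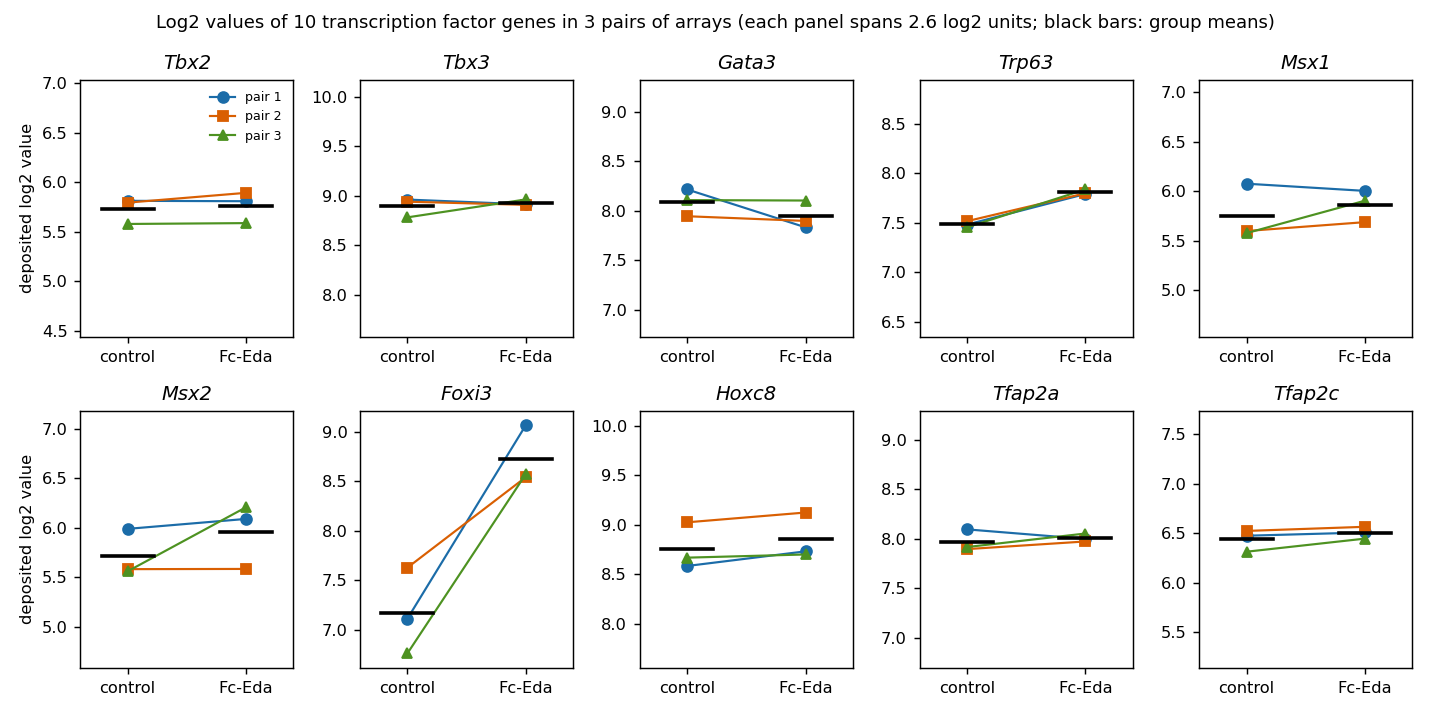
Deposited log2 values (vertical axis) of the 10 genes in control and Fc-Eda arrays, with a line joining the arrays of each pair, black bars for group means and the same span of 2.6 log2 units in each panel. Foxi3 went from a mean of 7.17 to 8.73 with no overlap of the groups, Trp63 from 7.48 to 7.81 with no overlap, and the other 8 genes overlapped.

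Over the whole table, Foxi3 had the 7th largest mean rise, and 0.027% of all probe sets had a mean difference of at least its size in either direction. It was the only member whose difference exceeded 0.5 in every pair, which 0.281% of all probe sets did. Its call depended on the test, the scaling and the filter on level. The paired limma fit, whose p-values were adjusted to Storey q-values, called 0% of the 25949 probe sets at a q-value under 0.05, with q = 0.25 for Foxi3 and 0.10 for the lowest of all. At an unadjusted p under 0.05 in limma, 2.73% of all probe sets were higher and 3.33% lower. Among the members, Foxi3 and Trp63 were higher at this level and 0 were lower. IBMT, a moderated test in which the prior variance follows the level of the signal, called 0.339% of all probe sets higher and 0.0231% lower, and Foxi3 was the single member among them (q = 0.026). A paired test of the Cyber-T type, which borrows variance from probe sets of like level, called 0.624% higher and 0.119% lower, again with Foxi3 as the single member (q = 0.00061). Limma with an intensity trend and robust moderation called 0.347% higher and 0.0231% lower, with Foxi3 among the former (q = 0.045). With arrays centred on their medians, where Foxi3 differed by 1.62, the paired limma fit itself called 0.216% higher, Foxi3 among them (q = 0.026), and 0.00385% lower. With only the probe sets above the median level kept, it called 0.655% higher, again with Foxi3 (q = 0.035), and 0.0462% lower. After cyclic loess limma did not call Foxi3 (q = 0.25) and IBMT called 0.0694% higher and 0.00385% lower, without Foxi3 (q = 0.10), whereas by the Cyber-T type test 0.717% were higher, 0.235% were lower, and Foxi3 passed (q = 0.00042). Without pair 1, Foxi3 differed by 1.36 and passed the threshold in the Cyber-T type test (q = 0.0017) and not in limma (q = 0.48) or IBMT (q = 0.31). Without pair 2 it differed by 1.88 and passed in limma as well (q = 0.027). An exact sign-flip permutation test over 3 pairs cannot give a two-sided p below 0.25, the value it gave for Foxi3.

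**Figure D2:**
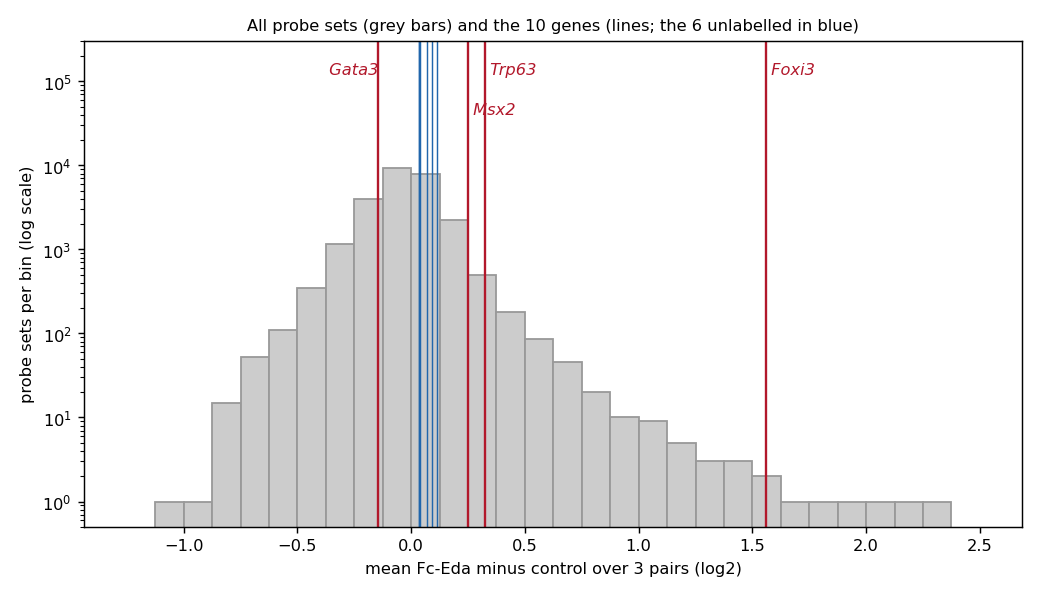
Number of probe sets (log axis) by mean Fc-Eda minus control difference (log2) over the whole table, with a line at each of the 10 genes. Foxi3 lies in the upper tail at 1.56, Trp63 at 0.32, Msx2 at 0.25 and Gata3 at -0.14, and the other 6 lie between 0.034 and 0.11.

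The probe sets whose pair differences were nearest to those of Foxi3, by Euclidean distance over the 3 pairs, carry no gene names here. The nearest was ENSMUSG00000079014, with 1.64, 1.02 and 1.496 in pairs 1, 2 and 3. The next was ENSMUSG00000034855, with 2.31, 1.25 and 1.83. Both had their smallest difference in pair 2, as did Foxi3. Likeness was measured over 3 pairs, and the pattern of Foxi3 was what selected them.

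Trp63 (ENSMUSG00000022510_at), which encodes p63, the factor that maintains the basal cells of stratified epithelia and without which mammary buds do not form, had the second largest difference. Its control values were 7.48, 7.52 and 7.45, and its treated values 7.79, 7.80 and 7.84. The groups did not overlap, and the lowest treated array lay 0.27 above the highest control array. The differences were 0.31, 0.28 and 0.38 in pairs 1, 2 and 3, with a mean of 0.32 (95% interval 0.12 to 0.53, n = 3 pairs). As deposited, the 3 pairs were alike, with a standard deviation of the differences of 0.052 against a median of 0.163 over all probe sets. Tfap2c, Tbx2 and Hoxc8 were close to it, at 0.055, 0.056 and 0.058. Complete separation upward was also seen in 3.98% of all probe sets, and a difference over 0.25 in every pair in 1.1%. Trp63 passed the threshold in none of the 3 tests (q = 0.48 in limma, 0.11 in IBMT, 0.081 in the Cyber-T type test). It passed without pair 1 in the Cyber-T type test, with a difference of 0.33 (q = 0.029). After cyclic loess its differences were 0.19, 0.28 and 0.37 in pairs 1, 2 and 3, with a mean of 0.28. With arrays centred on their medians they were 0.49, 0.27 and 0.38, with a mean of 0.38. On the linear scale the treated level was 1.25-fold that of the controls, and the interval above is for this gene alone, not adjusted for the number of probe sets.

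**Figure D3:**
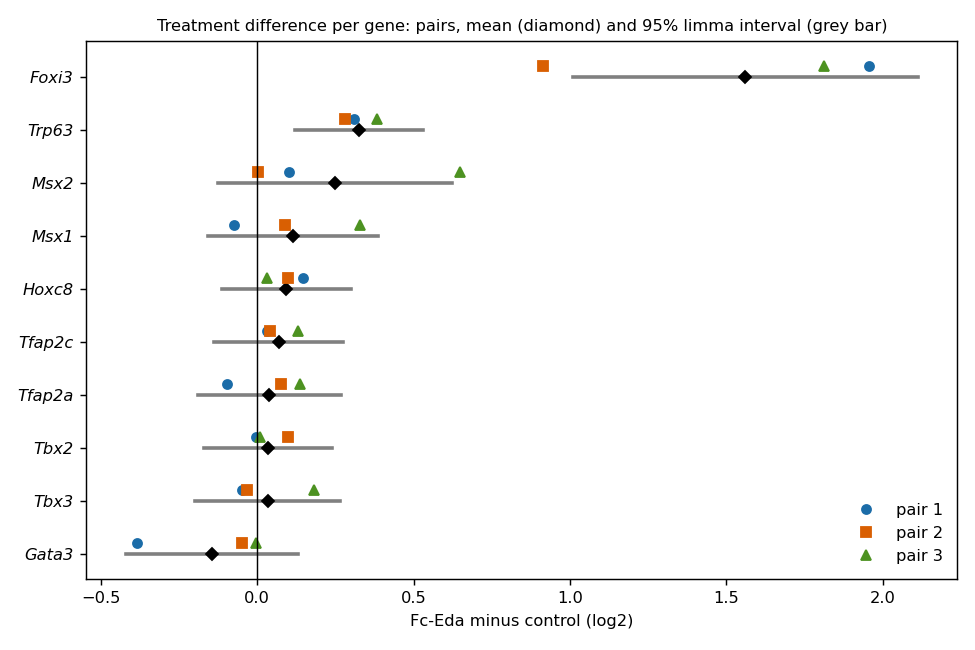
Fc-Eda minus control (log2, horizontal axis) for each gene, with 1 point per pair, the mean as a diamond and the 95% limma interval as a grey bar. The intervals of Foxi3 (1.01 to 2.11) and Trp63 (0.12 to 0.53) lie above 0, and the intervals of the other 8 genes include 0.

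The T-box repressors Tbx2 and Tbx3 are required for mammary development, Tbx3 already for most of the placodes. Human ulnar-mammary syndrome comes from mutations of TBX3. Tbx3 (ENSMUSG00000018604_at) was at 8.96, 8.94 and 8.78 in control buds and at 8.91, 8.91 and 8.96 after Fc-Eda. The groups overlapped and the pairs did not share a direction, with differences of -0.048, -0.032 and 0.18. The mean difference was 0.034 (95% interval -0.20 to 0.26), and it turned to -0.0096 after cyclic loess and to -0.040 without pair 3. It was 0.090 with arrays centred on their medians, 0.075 without pair 1 and 0.066 without pair 2. Tbx2 (ENSMUSG00000000093_at) was at 5.81, 5.79 and 5.58 in control buds and at 5.81, 5.89 and 5.59 after Fc-Eda. Replicate 3 was the lowest in both conditions, and its difference was 0.0086. The mean difference of Tbx2 was 0.035 (95% interval -0.17 to 0.24). It was 0.0023 without pair 2, 0.054 without pair 1 and 0.091 with arrays centred on their medians. For both T-box genes, 95% intervals reached no farther than 0.26 in either direction.

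Gata3 (ENSMUSG00000015619_at), a zinc finger factor needed for the embryonic mammary bud and for luminal cells of the adult gland, was the only member with a mean difference below 0. Its control values were 8.21, 7.94 and 8.11, and its treated values 7.83, 7.90 and 8.10. The groups overlapped. The differences were -0.38, -0.047 and -0.0043 in the 3 pairs, a mean of -0.14 (95% interval -0.42 to 0.13, q = 0.75 in limma). Most of the mean came from pair 1, which holds the array that stands apart, and without that pair the difference was -0.026. The mean was -0.088 with arrays centred on their medians. In pair 1 the difference was -0.20 with arrays centred on their medians and -0.50 after cyclic loess. A fall in all 3 pairs was seen in 15.3% of all probe sets.

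Msx1 and Msx2 are homeodomain factors of epithelial and mesenchymal interfaces that together are needed for the mammary bud to progress. In both, the range of the 3 pair means exceeded the mean treatment difference, as it did in 81.9% of all probe sets. Msx1 (ENSMUSG00000048450_at) was at 6.07, 5.596 and 5.58 in control buds and at 6.00, 5.69 and 5.90 after Fc-Eda. Msx2 (ENSMUSG00000021469_at) was at 5.99, 5.58 and 5.56 in control buds and at 6.09, 5.58 and 6.21 after Fc-Eda. In both genes replicate 1 was the highest of the controls, replicates 2 and 3 of the controls were close to each other, and the lowest treated array was that of replicate 2. The groups overlapped in both. The differences of Msx2 were 0.10, 0.0021 and 0.65 and those of Msx1 were -0.073, 0.090 and 0.33, so that pair 3 gave the largest difference in each. The means were 0.25 for Msx2 (95% interval -0.12 to 0.62, q = 0.75 in limma) and 0.11 for Msx1 (95% interval -0.16 to 0.39, q = 0.76). Without pair 3 the mean was 0.051 for Msx2 and 0.0084 for Msx1, and without pair 1 it was 0.32 for Msx2 and 0.21 for Msx1. Msx2 had the largest standard deviation of pair differences after Foxi3, at 0.35, and its interval is the widest of the members other than Foxi3.

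Hoxc8 (ENSMUSG00000001657_at), a Hox factor that marks the thoracic body region and acts on the placing of mammary placodes, was at 8.58, 9.02 and 8.67 in control buds and at 8.73, 9.12 and 8.70 after Fc-Eda. Replicate 2 was the highest array of each condition, and the 2 arrays of that pair lay above all others. The pair means spanned 0.42, while the mean treatment difference was 0.093 (95% interval -0.11 to 0.30). The difference was above 0 in every pair, at 0.15, 0.099 and 0.032, a direction shared by 13.2% of all probe sets. The mean was 0.15 with arrays centred on their medians and 0.049 after cyclic loess, where the difference in pair 1 was 0.036.

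Tfap2a and Tfap2c encode AP-2α and AP-2γ, factors of the surface ectoderm and of mammary epithelium. Tfap2a (ENSMUSG00000021359_at) was at 8.09, 7.89 and 7.92 in control buds and at 7.998, 7.97 and 8.05 after Fc-Eda. Its differences were -0.097, 0.077 and 0.14, with a mean of 0.039 (95% interval -0.19 to 0.27) that turned to -0.0063 after cyclic loess, to -0.0068 after quantile normalization and to -0.0097 without pair 3. It was 0.11 without pair 1, 0.020 without pair 2 and 0.096 with arrays centred on their medians. Tfap2c (ENSMUSG00000028640_at) was at 6.47, 6.52 and 6.31 in control buds and at 6.51, 6.56 and 6.44 after Fc-Eda. Its differences were 0.033, 0.042 and 0.13, with a mean of 0.069 (95% interval -0.14 to 0.27). The groups overlapped in both genes. Tfap2c was higher in each pair as deposited, and in pair 1 this became -0.047 after cyclic loess. Its mean was 0.13 with arrays centred on their medians, 0.042 after cyclic loess and 0.037 without pair 3.

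**Figure D4:**
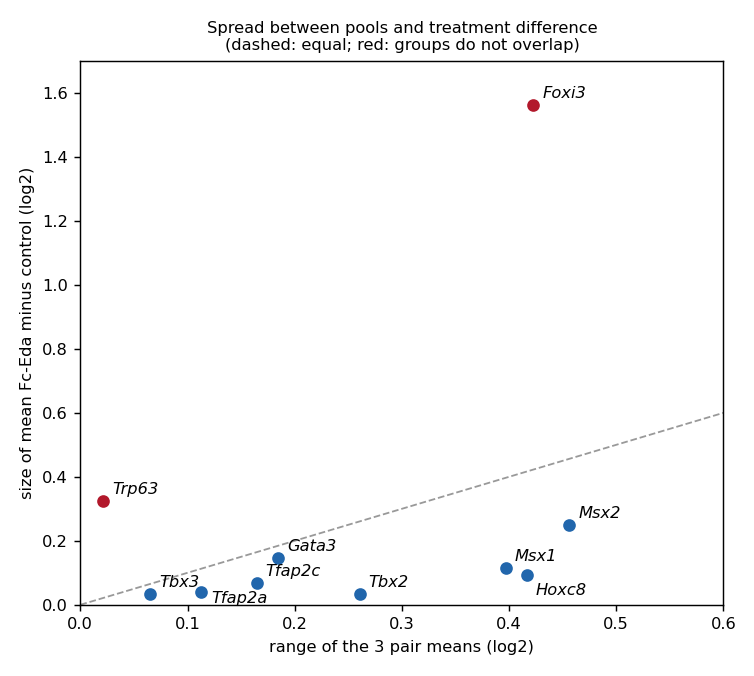
Size of the mean Fc-Eda minus control difference (log2, vertical axis) against the range of the 3 pair means (log2, horizontal axis) for each gene, with a dashed line where both are equal. Foxi3 (1.56 against 0.42) and Trp63 (0.32 against 0.021) lie above the line, and the other 8 genes lie below it.

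Across the 10 genes, 9 had a mean difference above 0 and 1 below, against 42.2% of all probe sets above 0. With arrays centred on their medians it was also 9, against 60.1%, and after cyclic loess 7, against 50%. All 10 members had a control mean above 4.87, the median over all probe sets. The shares of all probe sets given here cover every level and are no background of like level. The median of the 10 mean differences was 0.081 as deposited, against -0.024 over all probe sets. In pairs 1, 2 and 3 the members' median was 0.014, 0.083 and 0.16, against -0.074, 0.00048 and 0.0085 over all probe sets. Trp63, Msx2, Foxi3, Hoxc8 and Tfap2c, 5 of the 10, were higher in all 3 pairs, a direction seen in 13.2% of the whole table, and Gata3 was lower in all 3. With arrays centred on their medians, 7 members were higher in all pairs, as Tbx2, Msx1 and Tfap2a joined and Msx2 dropped out, against 17% of all probe sets. After cyclic loess there were 5, with Tbx2 in place of Tfap2c, against 15.1%. By pair, 5 of the members were higher in pair 1, 8 in pair 2 and 9 in pair 3, where 40.8%, 50.1% and 52.3% of all probe sets were higher. The 2 genes whose groups did not overlap, Foxi3 and Trp63, are set against 3.98% of all probe sets that separated upward and 5.11% that separated downward. In 8 of the 10 genes the pair means spanned more than the treatment difference, as they did in 81.9% of all probe sets. Hoxc8, Msx1, Msx2 and Foxi3 had the widest span between pools, from 0.40 to 0.46, and Trp63 the narrowest, at 0.021.

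For 7 of the members, Tbx2, Tbx3, Gata3, Msx1, Hoxc8, Tfap2a and Tfap2c, the 95% interval lay within 0.5 of 0 on the log2 scale. Differences over 0.5 in size, that of Foxi3 among them, lie outside these intervals. The 8 members other than Foxi3 and Trp63 had q-values of 0.75 to 0.81 in limma, 0.68 to 0.83 in IBMT and 0.73 to 0.94 in the Cyber-T type test. These p-values come from 3 pools per condition, and values that miss the threshold do not show that a gene did not respond.

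**Figure D5:**
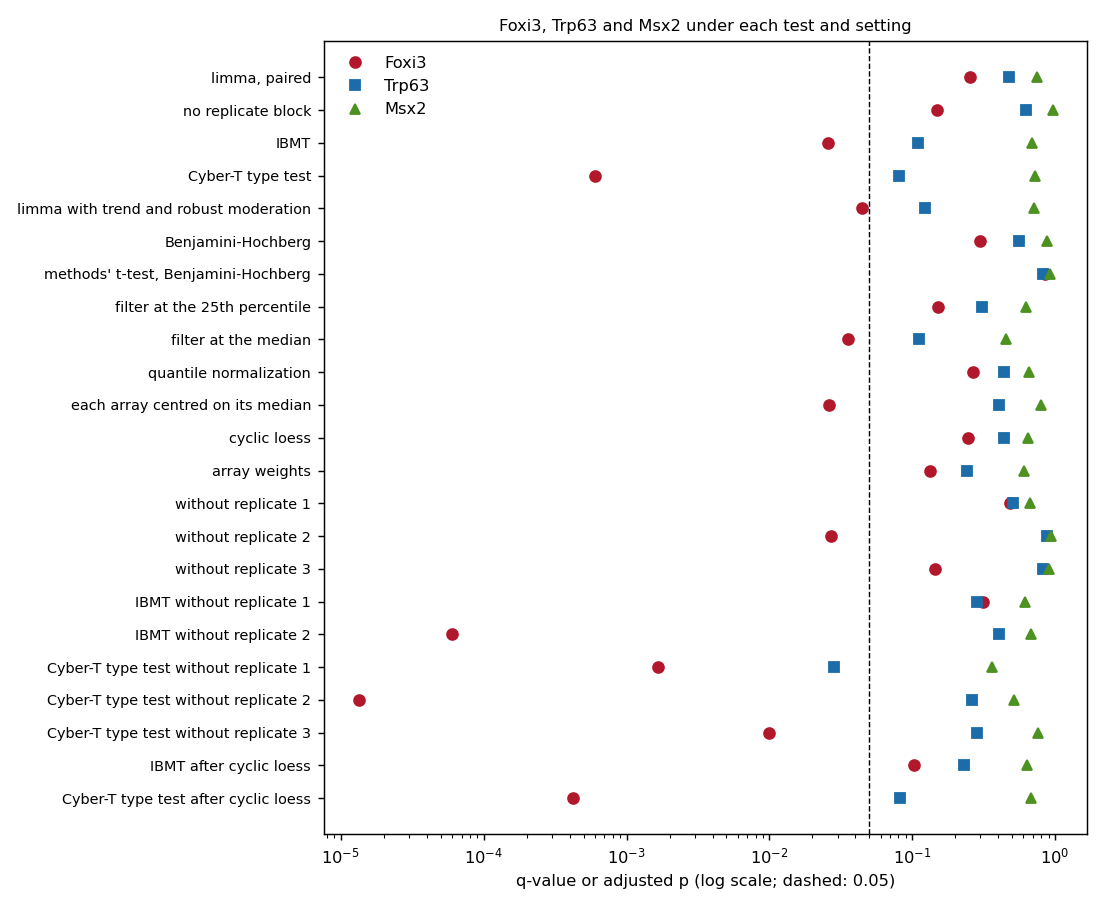
q-value or adjusted p (log axis, dashed line at 0.05) of Foxi3, Trp63 and Msx2 under the paired limma fit and its alternatives, 1 line per setting, without the setting that has no adjustment and the IBMT fit without replicate 3. Foxi3 lies on both sides of the line depending on the test, the scaling, the filter and the pair left out, Trp63 is left of it only in the Cyber-T type test without replicate 1, and Msx2 stays right of it in the settings shown.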

How the data were processed

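Total RNA of 6 samples, 3 per condition, was hybridized to Affymetrix Mouse Exon 1.0 ST arrays. The authors deposited log2 values, 1 per array, under Ensembl mouse gene identifiers. The submitters' processing notes name RMA, and the probe set definition, annotation release and genome build are not given in the sources used here. The 6 arrays differ in median and quartiles. No detection call was used. Precision is limited by the small number of arrays.

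Sample titles give each array's condition and replicate number. The numbers pair the arrays because buds of the same embryos were divided between both conditions, and deviations from the group means correlated within pairs with r = 0.079, 0.29 and 0.29. All 25949 probe sets were fitted in limma 3.58.1 (R 4.3.3) with treatment and replicate number as terms and default moderation, after the study's methods. The study itself used limma, IBMT and Cyber-T, and listed genes with a q-value under 0.05 in any of them. Foxi3 was among the genes that it listed as upregulated. Storey q-values (spline of 3 degrees of freedom, lambda from 0.05 to 0.95) were called under 0.05. Intervals are 95% intervals from the moderated fit. IBMT (loess span 0.75) and a Cyber-T type test (window 101, prior weight 10) were rewritten and can differ from the authors' programs in default settings. The tests were run on simulated data, where the only condition to pass was a small error of the estimated difference. False calls were not part of that condition, so it does not show how well the q-values hold.

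The members were chosen, and the lists and alternatives set, with earlier results of these data known. The gene name of each member's identifier was given with the list of members. The named-gene rule was every member with a row, and for a member with 1 direction in all pairs and a mean difference over 0.5 in size, its nearest probe sets by pair differences, of which 2 are printed by identifier. The reference pairs 0 of the remaining identifiers with a name, so lists of other transcription factors, NF-κB response genes and cell type markers were not analysed here, nor were protein sequences. Promoter windows come from RefSeq (GRCm38.p6) and matched 5 of the 10 members by symbol. Alternatives were a fit without the block, other tests and moderation, filters on level, other normalizations, array weights and leaving out each pair.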

Additional observations from a re-analysis of the deposited data

How the results depend on the processing

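Settings that combine IBMT or the Cyber-T type test with cyclic loess or with fewer pairs were added after seeing the data, and the other alternatives were planned. Limma called 0 of the 10 members, and 0 probe sets higher and 0 lower over the whole table. With no replicate block it called 0 members, and 3 probe sets higher and 0 lower. A single member, Foxi3, 1 of the 10, was called higher under IBMT (88 higher and 6 lower over the whole table), the Cyber-T type test (162 and 31), limma with robust moderation and a trend (90 and 6), the filter at the median of level (85 and 6), arrays centred on their medians (56 and 1) and the Cyber-T type test after cyclic loess (186 and 61). A plain paired t-test, which has the pairing of the study's methods but neither their moderation nor their adjustment, gave at an unadjusted p under 0.05 802 higher and 696 lower with 2 members, Foxi3 and Trp63, and after Benjamini-Hochberg adjustment 0 and 1 with no member. Array weights gave 11 higher and IBMT after cyclic loess 18 and 1, with no member. Benjamini-Hochberg adjustment of the limma p-values, the filter at the 25th percentile, quantile normalization and cyclic loess gave 0 members in limma. With each pair dropped in turn, limma gave 0 to 10 probe sets higher and 0 to 1 lower, with Foxi3 called without pair 2 and no member otherwise. IBMT called 0 and 0 without pair 1 and no member, 54 and 2 without pair 2, and 256 and 269 without pair 3, with Foxi3 in the latter 2 settings. The last of these had an infinite prior weight, so a gene's own spread did not count. The Cyber-T type test called 337 and 175 without pair 1 with 2 members, Foxi3 and Trp63, then 82 and 8 without pair 2 and 78 and 25 without pair 3, each with Foxi3. Foxi3 ranged from 1.36 to 1.88 and passed in 13 of 24 alternatives, and Trp63 ranged from 0.28 to 0.38 and passed in 2, in both counts including the plain paired t-test at an unadjusted p. The sign of Tbx3 turned after cyclic loess (-0.0096) and that of Tfap2a after cyclic loess (-0.0063) and quantile normalization (-0.0068). Quantile normalization moved Tbx3 to 0.0055, Tfap2c to 0.033 and Hoxc8 to 0.057, and array weights moved Gata3 to -0.062, Tbx3 to 0.057, Msx1 to 0.17 and Tfap2a to 0.085. Leaving out each pair, Tbx3 and Tfap2a ranged from -0.040 to 0.075 and from -0.0097 to 0.11. The other 8 members kept their sign in all 24 alternatives. The cause of these changes was not tested. How far a signal stands above background is not known here, so no member was judged present or absent.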
